A study of Mus musculus with 12 samples.

Results

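The T helper 17 (Th17) cells that received vehicle alone were described here by the abundance of their transcripts. They make up 3 of the 12 libraries of the series, chosen by the label vehicle control, and carry the replicate numbers 1, 2 and 3. The starting cells were naive CD4+ T cells of C57BL/6J mice of wild-type (WT) genotype, isolated magnetically from spleen. They were grown in RPMI 1640 with a commercial Th17 supplement (CytoBox Th17), activated through CD3 and CD28, and given vehicle with no further compound. The labels call the replicates biological but name no animals, pooling, age or time in culture, so the spread given here is that between 3 libraries and its source cannot be told apart. The other 9 libraries, from cells given ILA, GSK805 or both, were not analysed here.

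Each library holds an FPKM value (fragments scaled by the length of the gene and by the total of the library) for 29522 genes, of which 28807 have a symbol and 16752 are protein-coding. FPKM is per length, so levels of different genes in these libraries can be ordered. Any order or ratio between genes depends on the length assigned to each gene. The values fit lengths summed over all annotated exons of a gene, so exons that the cells do not use lower its level. The depth inferred from the steps between low values was 22164460, 20518060 and 20622080 reads in replicates 1, 2 and 3, so that a single read over 1 kb of transcript adds 0.0451 to 0.0487 FPKM. A mean of 1 FPKM or more was found for 12331 genes, and 9597 of them are protein-coding. That is 57.3% of the protein-coding genes measured, the background for every count of genes at this level given here. The median of all protein-coding genes was 2.17 FPKM, and that of the 9597 was 9.41 FPKM. No group is compared with another, so values are means ± SD over 3 libraries without a test.

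Th17 cells are helper T cells that secrete interleukin-17A and interleukin-17F and defend barrier tissues against extracellular bacteria and fungi. TGF-beta and IL-6 start the programme in an activated naive cell, STAT3, BATF and IRF4 open it, and the nuclear receptor RORalpha, made from Rora, is among the factors that direct it. IL-23 and IL-1 sustain it, and activated T cells of any kind also enlarge, divide and raise glycolysis, amino acid uptake and protein synthesis.

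Il17a and Il17f, which encode IL-17A and IL-17F, were the 2 most abundant of the 116 cytokine genes measured. Il17a stood at 634, 803 and 832 FPKM in replicates 1, 2 and 3, a mean of 756 ± 107 FPKM. Il17f stood at 564, 652 and 656 FPKM, a mean of 624 ± 51.9 FPKM. Replicate 1 was the lowest for both genes, and the values of the 2 genes overlap, although Il17a was the higher of them within every library. Among protein-coding genes Il17a ranked 27 and Il17f ranked 36. Behind these values lie 16449 to 20089 reads of Il17a and 25287 to 27373 of Il17f in each library. Il17f thus had more reads, and the order of the 2 genes by FPKM rests on the length assigned to each. Il17a took 0.235 ± 0.0298% of the summed FPKM. The ratio of Il17a to Il17f was 1.12, 1.23 and 1.27. The genes are neighbours on chromosome 1 of GRCm38, Il17a at chr1:20730905-20734496 on the plus strand and Il17f at chr1:20777146-20790617 on the minus strand, with 42649 bases between them.

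The start regions of the most abundant secreted products and of the lineage factor Irf4 are shown because they hold the TATA motif, which few genes have. TATAAA was searched on the gene's own strand, with its first base 20 to 40 bases before the RefSeq start. It was there in 650 of 27025 genes with a promoter in the RefSeq table (2.41%) and in 91 of the 7679 protein-coding genes of at least 1 FPKM that have one (1.19%). Among the 25 most abundant genes with ribosomal proteins apart, 20 have a promoter in the table and 4 hold the motif: Il17a, Il17f, Il2 and Mmp10. The stretches run from 50 bases before the start to 10 after it, on the gene's strand, from GRCm38.p6. Capitals mark TATAAA.
Il17a, chr1:20730855-20730914, plus strand: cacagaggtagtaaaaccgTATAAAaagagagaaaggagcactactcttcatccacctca
Il17f, chr1:20784261-20784320, minus strand: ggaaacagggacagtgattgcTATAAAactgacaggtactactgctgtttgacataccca
Il2, chr3:37125945-37126004, minus strand: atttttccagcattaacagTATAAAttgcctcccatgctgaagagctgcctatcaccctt
Mmp10, chr9:7502292-7502351, plus strand: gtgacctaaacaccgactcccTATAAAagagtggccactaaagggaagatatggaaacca
Mmp13, chr9:7272464-7272523, plus strand: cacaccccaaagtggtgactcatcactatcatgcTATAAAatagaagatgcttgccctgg
Irf4, chr13:30749183-30749242, plus strand: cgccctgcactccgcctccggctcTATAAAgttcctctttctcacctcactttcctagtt

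The first base of TATAAA lies 31 bases before the start in Il17a and Il2, 29 in Il17f and Mmp10, and 26 in Irf4. In Mmp13 it lies 16 bases before the start and so falls outside the window that was counted. The motif does not follow the level within the cytokine class: 5 of 25 cytokine genes of at least 10 FPKM hold it, and so do 6 of 40 under 1 FPKM. None of 57 ribosomal protein genes holds it. Those genes more often have a run of pyrimidines at the start (a C followed by 4 pyrimidines, from 10 bases before to 20 after it), found in 64.9% of them, in 41.6% of protein-coding genes of at least 1 FPKM and in 39.6% of all genes in the table. A match of letters is a description and not a site of binding.

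The most abundant protein-coding transcript was Eef1a1, which encodes the elongation factor that brings aminoacyl-tRNA to the ribosome. It stood at 4794, 5155 and 5042 FPKM, a mean of 4997 ± 184 FPKM or 1.55 ± 0.0304% of the total. Ribosomal protein genes came next as a group. The 77 of them took 14.3 ± 0.429% of the summed FPKM, but 7.72 ± 0.356% of the reads. They fill 31 of the 50 highest places, and the highest were Rplp1 at 2745 ± 178 FPKM, Rplp0 at 2537 ± 92.9 FPKM and Rps3a1 at 1714 ± 53.4 FPKM. The 50 most abundant protein-coding genes held 15.9 ± 0.447% of the summed FPKM and the 1000 most abundant 47.6 ± 0.588%. A mean of at least 1000 FPKM was reached by 17 protein-coding genes and one of at least 100 FPKM by 349.

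The 25 highest genes outside the list of 77 ribosomal protein genes were led by genes of protein synthesis and folding. After Eef1a1 came Tpt1, a translationally controlled tumour protein, at 1753 ± 61.7 FPKM, and Eef2, the translocation factor of elongation, at 1416 ± 39.0 FPKM. Hsp90ab1, a constitutive cytosolic HSP90 chaperone, had 1071 ± 34.9 FPKM and Hspa5, the BiP chaperone of the endoplasmic reticulum (ER), 958 ± 24.5 FPKM. Npm1, a nucleolar chaperone of ribosome assembly, had 523 ± 6.13 FPKM.

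Genes of secreted proteins stand among these housekeeping genes. Mmp10, which encodes the matrix protease stromelysin-2, had 741, 886 and 879 FPKM, a mean of 835 ± 81.9 FPKM, above Il17a. Mmp13, which encodes collagenase-3, had 585, 623 and 650 FPKM, a mean of 620 ± 32.8 FPKM. Replicate 1 was again the lowest for both. Il2, the growth factor of activated T cells, had 592, 619 and 622 FPKM, a mean of 611 ± 16.6 FPKM. Its 3 values were closer together than those of Il17a, and lie within the range of Il17f. Srgn, the proteoglycan core protein of secretory granules, had 584 ± 18.3 FPKM.

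Pim1, a serine/threonine kinase induced by cytokines through STAT5, had 566, 573 and 565 FPKM, a mean of 568 ± 4.22 FPKM and one of the least variable of these genes. Cd53, a tetraspanin of leukocytes, had 564 ± 26.7 FPKM and B2m, the light chain of MHC class I, 547 ± 28.7 FPKM. The transcription factors Atf4 and Junb close the group of 25. Its other members were the ubiquitin gene Ubb at 596 ± 35.6 FPKM, Fau, whose product includes a ribosomal protein of the small subunit although it is not in that list, at 904 ± 60.7 FPKM, Tmsb4x at 652 ± 48.4 FPKM, Ptma at 590 ± 4.38 FPKM, Actb at 519 ± 20.5 FPKM and Ftl1 at 516 ± 11.5 FPKM. Of the 25 neighbouring pairs in this order, 20 have values that overlap, so most places in it are not separated by 3 libraries.

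Copies of a gene limit some of these levels. Gm11808 and Rps12-ps3, annotated as protein-coding, are also in the group of 25, at 711 ± 50.6 and 567 ± 40.9 FPKM. Of the 50-base words in their transcripts, 94.5% also occur in other genes for Gm11808 and 100% in Rps12 for Rps12-ps3. Shared words were 40.4% for Eef1a1, 48.1% for Ubb and 58.4% for Ftl1, with other genes. Among the ribosomal protein genes named above they were 60% for Rplp1, 33.1% for Rplp0 and 71.0% for Rps3a1. The sources used here do not say how reads with several places were counted, so the levels of these genes are uncertain. The order of the ribosomal protein genes and their share of the FPKM are uncertain for the same reason. Il17a and Mmp13 share no such word with another gene, while Il2 shares 12.6%, Mmp10 8.37% and Il17f 5.63% of theirs.

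**Figure D1:**
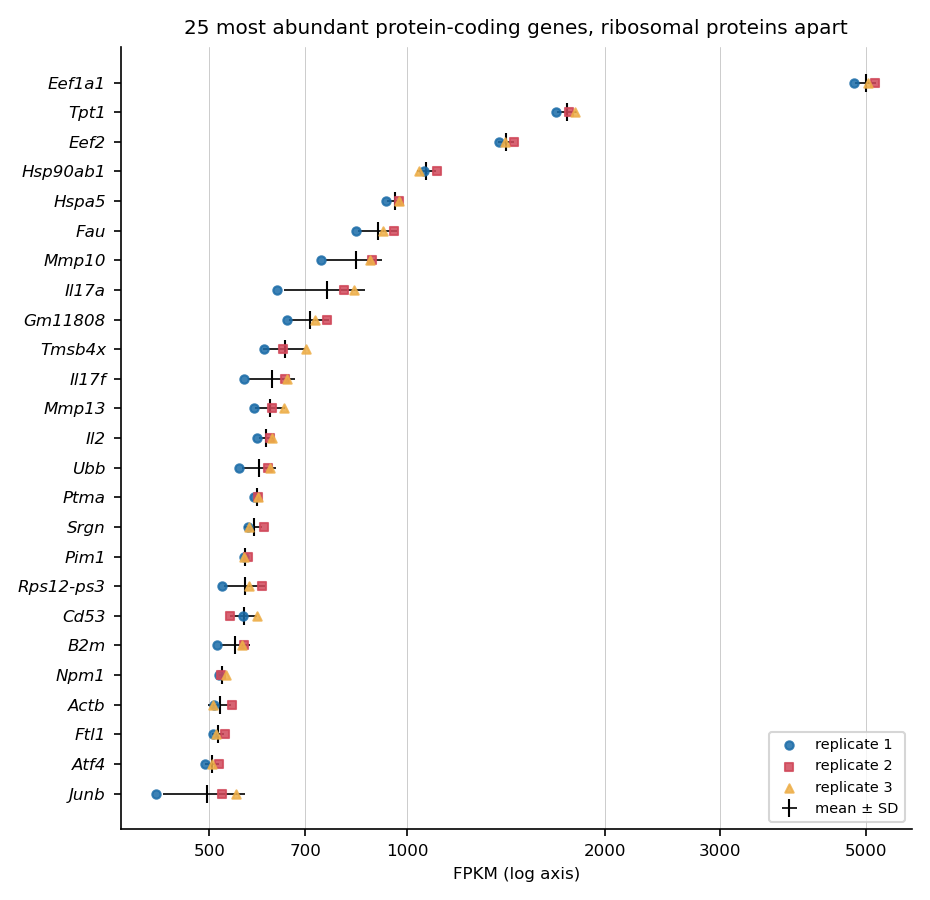
FPKM on a log axis for the 25 protein-coding genes with the highest mean, ribosomal proteins apart, in order of the mean; points are the 3 vehicle libraries and the black mark is the mean with its SD. Eef1a1 stands alone near 4997 FPKM, and Mmp10, Il17a, Il17f, Mmp13 and Il2 lie between 564 and 886 FPKM, with replicate 1 the lowest for each.

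**Figure D2:**
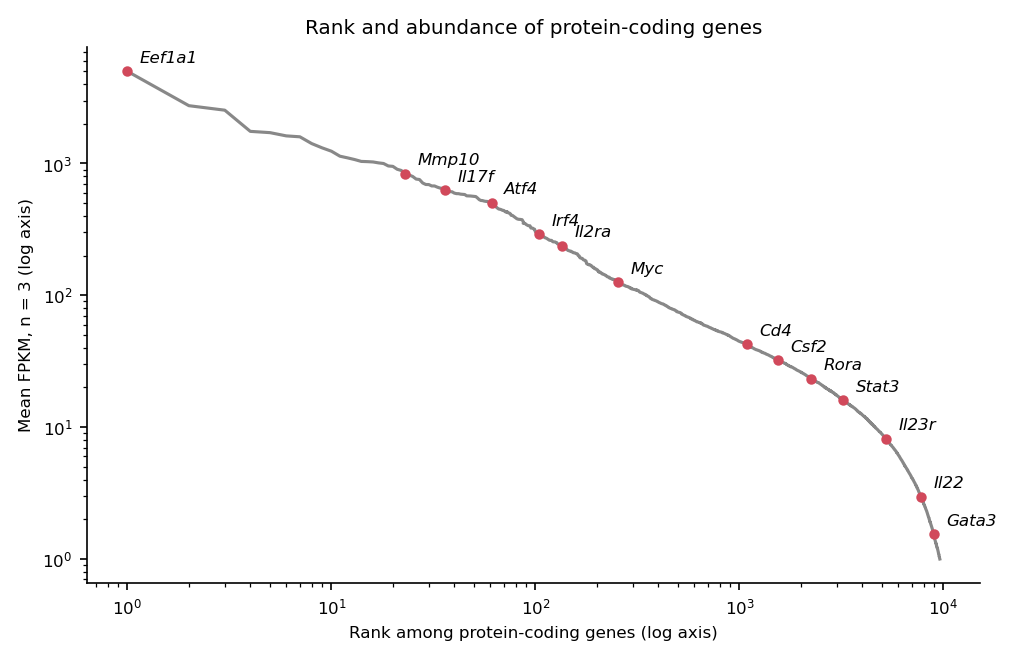
Mean FPKM (log axis) against rank (log axis) for the protein-coding genes of at least 1 FPKM, with named genes as red points. Il17f and Mmp10 lie on the upper part of the curve. The factors of the Th17 lineage drawn here spread from Irf4 at 291 FPKM to Stat3 at 16.04 FPKM. Maf and Ahr, which are not drawn, lie lower.

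The labelled cell type was checked against its markers. Cd4 stood at 41.1, 43.4 and 42.6 FPKM, a mean of 42.4 ± 1.18 FPKM, and Cd8a at 0.219 ± 0.0821 FPKM. Of 21 genes of CD4 T cell identity 20 reached 1 FPKM, with a median of 53.1 FPKM. The receptor constant genes were the highest, Trbc2 at 374 ± 13.4 FPKM, Trbc1 at 301 ± 7.87 FPKM and Trac at 189 ± 7.75 FPKM. Trbc1 and Trbc2 share 40.5% and 44.0% of their words with each other, so the split between them is uncertain. The gamma delta constant genes Trdc and Tcrg-C1 had 0.716 ± 0.272 and 0.255 ± 0.175 FPKM. Of 8 gamma delta markers 1 reached 1 FPKM, Tcrg-C2 at 1.10 FPKM.

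All 22 genes of the Th17 signature reached 1 FPKM, and their median was 14.1 FPKM. Its members span from Il17a to Ltb4r1, a leukotriene receptor, at 2.88 ± 0.288 FPKM. Ccl20, the ligand of CCR6, had 25.05 ± 3.29 FPKM, and Il12rb1, the chain shared by the IL-12 and IL-23 receptors, 19.5 ± 1.88 FPKM. Marker lists of the other helper types were lower. Of 13 Th1 markers 8 reached 1 FPKM (median 2.10 FPKM), of 10 Th2 markers 5 did (median 0.874 FPKM), and of 12 regulatory T cell markers 8 did (median 2.06 FPKM). The highest of the last list were Il2ra and Ctla4, which activated helper cells also make. Of 10 follicular helper markers 8 reached 1 FPKM, with a median of 10.3 FPKM, led by Il21, which Th17 cells also make, and Icos, a costimulatory receptor. The Th17 list also holds genes that are not particular to Th17 cells, such as Il12rb1.

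Genes of the naive and quiescent state were present beside the effector genes. All 13 of that list reached 1 FPKM, and their median was 30.7 FPKM. Btg1, an antiproliferative factor, had 209 ± 7.68 FPKM, Tcf7, the naive and memory factor TCF-1, 140 ± 3.20 FPKM and Ccr7, the lymph node homing receptor, 129 ± 9.24 FPKM. Klf2, a factor of quiescence and trafficking, was the lowest at 3.40 ± 0.578 FPKM. In a bulk library, a gene that few cells express strongly and one that many cells express weakly cannot be told apart.

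Markers of other cells were mostly near 0. Of 66 measured, 13 reached 1 FPKM and 33 were under 0.1 FPKM. The 9 B cell markers summed to between 5.79 and 6.63 FPKM, and 2 of them reached 1 FPKM. Ighm was the highest at 3.97 FPKM, and Pax5 had 0.0234 ± 0.0178 FPKM. The 18 myeloid markers summed to between 8.63 and 11.1 FPKM, most of it from Cd68 and Csf1r. Adgre1, Mpeg1 and Clec9a were at 0 in all 3 libraries. The 11 markers of CD8 T and NK cells summed to between 29.5 and 36.6 FPKM. In that list Klrd1, an NK receptor chain, had 15.3 ± 1.26 FPKM and Gzma, a granzyme, 7.76 ± 1.88 FPKM, whereas Klrb1c had 0.00549 ± 0.0095 FPKM. Among the 11 stromal, endothelial and epithelial markers, Epcam had 11.7 ± 0.881 FPKM and Pecam1 4.44 ± 0.315 FPKM, while Cdh1 and Cdh5 were at 0 and Col1a1 at 0.0483 ± 0.0095 FPKM. The part of other cells in any level given here was not tested.

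Atf4, Junb and Irf4 were the most abundant transcription factor genes. Of 279 measured, 205 (73.5%) reached 1 FPKM, 122 reached 10 FPKM and 16 reached 100 FPKM, with a median of 7.80 FPKM. Atf4, the effector of the integrated stress and amino acid response, had 492, 518 and 505 FPKM, a mean of 505 ± 12.9 FPKM. Junb, the AP-1 partner of BATF, had 416, 523 and 549 FPKM, a mean of 496 ± 70.7 FPKM. The values of the 2 genes overlap, and Junb varied far more, with replicate 1 the lowest. Irf4, which binds beside BATF at Th17 genes and rises with the strength of receptor signalling, had 311, 277 and 286 FPKM, a mean of 291 ± 17.7 FPKM, here with replicate 1 the highest.

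Nr4a1, an immediate early receptor of T cell activation also called Nur77, had 194, 229 and 232 FPKM, a mean of 219 ± 21 FPKM. Its relative Nr4a3 had 98.4 ± 6.61 FPKM. NF-kB, the pathway downstream of CD28, was represented by Nfkb1 at 185 ± 0.743, Nfkb2 at 156 ± 7.04 and Rela at 145 ± 5.44 FPKM. Nfkb1 varied least of these. Id2, an inhibitor of E proteins, had 158 ± 14.9 FPKM and Bhlhe40, a factor of cytokine production, 145 ± 8.57 FPKM. Xbp1, the factor of the unfolded protein response, had 141 ± 0.711 FPKM, and Ddit3, the stress factor CHOP, 117 ± 4.04 FPKM. Jund had 128 ± 12.5 FPKM, but shares 48.3% of its words with the antisense gene Gm11175, which had 196 ± 14.9 FPKM.

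The factors that define helper lineages covered a range from Irf4 at 291 FPKM to Tbx21 at 0.542 ± 0.151 FPKM, and of the 12 neighbouring pairs in that order 1 overlaps. Myc, the driver of growth after activation, had 126 ± 1.34 FPKM and Hif1a, the hypoxia factor that promotes glycolysis in Th17 cells, 84.9 ± 4.43 FPKM. Batf had 31.9 ± 1.94 FPKM, Rora 25.1, 20.7 and 24.04 FPKM, and Stat3 16.04 ± 0.681 FPKM. Rora was lowest in replicate 2, and its values lie below all of Batf and above all of Stat3.

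Bcl6, the follicular helper factor, had 12.03 ± 0.302 FPKM, Maf, a driver of Il21 and Il10, 10.5 ± 0.700 FPKM and Ahr, the aryl hydrocarbon receptor, 3.48 ± 0.360 FPKM. The factors of the other lineages were the lowest. Gata3, for Th2, had 1.52, 1.57 and 1.54 FPKM, Foxp3, for regulatory T cells, 1.06, 1.59 and 1.05 FPKM, and Tbx21, for Th1, 0.707, 0.411 and 0.507 FPKM. Gata3 and Foxp3 overlap in their values, and Tbx21, with 21 to 39 reads in each library, lies below both. Rora, Maf, Bcl6, Ahr, Hif1a, Gata3 and Foxp3 each overlap at least 1 gene on the other strand, and the use of strand in counting is unknown from the sources used here, so their levels are uncertain. Il2, Junb, Pim1, Tcf7, Csf2 and Kcna3, named elsewhere here, also each overlap a gene on the other strand, with the same limit. Overlaps were not sought for every gene named here. Foxp3 also shares 23.1% of its words with other genes. Gm15655 over Maf had 28.7 ± 4.41 FPKM and Gm15511 over Rora 21.3 ± 2.28 FPKM.

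Within the STAT family, which carries cytokine signals to the nucleus, Stat5a was the highest at 93.0 ± 0.844 FPKM. All 7 members reached 1 FPKM. The ratio of Stat5a, which serves IL-2, to Stat3, which serves IL-6, IL-21 and IL-23, was 5.99, 5.91 and 5.50. Stat3 and Stat5a overlap on opposite strands. The AP-1, BATF and MAF list had the next highest median of the factor lists after NF-kB and NFAT, 32.4 against 34.4 FPKM, and 17 of its 23 members reached 1 FPKM. Fos and Jun themselves had 49.1 ± 4.77 and 60.01 ± 4.26 FPKM.

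Cytokine genes ranged from the top of the transcriptome to 0. Of 116 measured, 58 (50%) reached 1 FPKM, 35 reached 10 FPKM and 33 were under 0.1 FPKM. The median was 1.01 FPKM, below that of all protein-coding genes, while 7 members exceeded 100 FPKM. Together they took 1.27 ± 0.0697% of the summed FPKM, of which Il17a, Il17f and Il2 held 0.618 ± 0.0451%. After these 3 came Mif, the macrophage migration inhibitory factor, at 441 ± 12.4 FPKM. Mif shares 50.9% of its words with other genes, so its level is uncertain. Lgals1, a galectin, had 142 ± 13.9 FPKM, and Manf and Hdgf, growth factors found in most cells, 123 ± 3.35 and 118.4 ± 3.33 FPKM.

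Tnf had 81.1, 87.9 and 98.0 FPKM, a mean of 89.0 ± 8.53 FPKM. The chemokine Ccl4 had 71.6, 82.0 and 105 FPKM, a mean of 86.3 ± 17.3 FPKM, in relative terms the widest spread among the 12 highest cytokine genes (CV, the SD as a percentage of the mean, 20.04%). Ltb, a membrane lymphotoxin, had 86.0 ± 4.57 FPKM, Il21, which sustains Th17 and follicular cells, 71.2 ± 4.73 FPKM, and Inhba, the activin A subunit, 68.2 ± 4.47 FPKM. Il21 overlaps the antisense gene Gm12534, which had 91.6 ± 9.55 FPKM. The 12 highest cytokine genes and the 12 highest receptor genes were the same when any 1 library was left out, whereas 11 of the 12 factors remained without replicate 2.

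The other helper cytokines were lower. Tgfb1 had 48.3 ± 2.09 FPKM and Csf2, which encodes GM-CSF, 22.1, 35.6 and 39.1 FPKM, a mean of 32.2 ± 9.0 FPKM. Ifng, the Th1 cytokine, had 6.65, 6.66 and 9.02 FPKM, so that Il17a stood 95.2, 120 and 92.2 times as high. Il22, a Th17 product that acts on epithelia, was far lower than Il17a, at 1.42, 2.90 and 4.59 FPKM, a mean of 2.97 ± 1.58 FPKM. The ratio of Il17a to Il22 was 445, 277 and 181, and Il22 rests on 35 to 105 reads and shares 41.0% of its words with its copy Iltifb. Il10 had 2.00, 2.53 and 3.70 FPKM and Il9 2.86, 2.18 and 0.633 FPKM.

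The remaining helper cytokines lie below 1 FPKM: Il6 at 0.739, Il13 at 0.545, Il4 at 0.477 and Il5 at 0.193 FPKM as means. Il4, Il5 and Il13, the products of Th2 cells, rest on 3 to 31 reads in each library. Il13 had 0.225, 0.162 and 1.25 FPKM, where replicate 3 alone lifts the mean. Il3, a colony factor in the same gene cluster as Csf2, had 9.97, 12.6 and 18.7 FPKM. Il3 and Csf2 were both lowest in replicate 1 and highest in replicate 3.

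**Figure D3:**
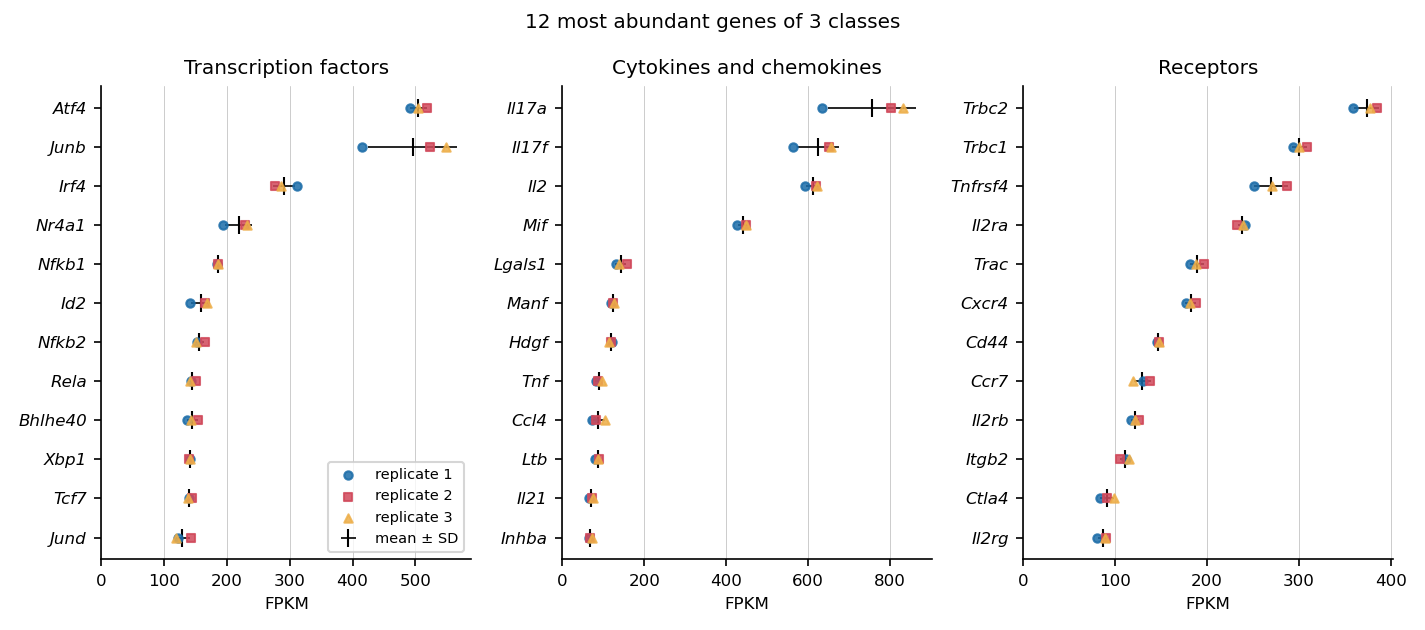
FPKM (linear axis from 0) of the 12 highest transcription factors, cytokines and receptors in the 3 vehicle libraries, with the mean and SD in black. Atf4 and Junb overlap near 500 FPKM, 3 cytokines stand above 560 FPKM and 1 more above 420 FPKM, and the receptors decline more evenly from Trbc2 at 374 FPKM.

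Receptors were led by the T cell receptor, the IL-2 receptor and costimulators. Of 167 measured, 120 (71.9%) reached 1 FPKM, with a median of 5.82 FPKM. Tnfrsf4, which encodes the costimulator OX40, had 251, 287 and 270 FPKM, a mean of 270 ± 18.3 FPKM, and its ligand Tnfsf4 had 34.9 ± 1.61 FPKM. Il2ra, the alpha chain of the IL-2 receptor and a mark of activation, had 242, 233 and 240 FPKM, a mean of 238 ± 4.73 FPKM. With Il2rb at 122 ± 4.17 FPKM and Il2rg at 86.6 ± 5.47 FPKM, the 3 chains of the receptor were all among the 12 highest. The ligand exceeded its receptor chain, with a ratio of Il2 to Il2ra of 2.45, 2.66 and 2.60.

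Homing and adhesion receptors follow. Cxcr4, a receptor for CXCL12, had 182 ± 5.90 FPKM, Cd44, the hyaluronan receptor of activated cells, 147 ± 1.23 FPKM and Itgb2, the beta chain of LFA-1, 111 ± 5.22 FPKM. Ctla4, the inhibitory partner of CD28, had 91.2 ± 7.83 FPKM, above Cd28 itself at 74.2 ± 3.33 FPKM. The 12 highest receptors are better separated than the other classes, with 3 overlapping pairs of neighbours of 12, against 7 of 12 for factors and 7 of 12 for cytokines.

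The receptors that carry Th17 signals were much lower than those of IL-2. Il1r1, for IL-1, had 18.8 ± 0.623 FPKM, and its decoy Il1r2 had 36.5 ± 2.15 FPKM. Tgfbr2 had 15.9 ± 0.248 FPKM and Tgfbr1 9.04 ± 0.423 FPKM. Il23r, the specific chain of the IL-23 receptor, had 9.67, 7.68 and 7.15 FPKM, a mean of 8.17 ± 1.33 FPKM, with replicate 1 the highest although Il17a was lowest there. Ccr6, the homing receptor of Th17 cells, had 4.80 ± 0.205 FPKM, Il6st, the shared signalling chain gp130, 4.75 ± 0.301 FPKM and Il6ra 3.42 ± 0.0873 FPKM. Cxcr3, a Th1 homing receptor, had 4.53 ± 0.336 FPKM, and its values overlap those of Il6st. Cxcr5, the follicular homing receptor, had 0.261 ± 0.0539 FPKM.

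Metabolic genes were more often present than factors, cytokines or receptors: 221 of 251 (88.0%) reached 1 FPKM, with a median of 14.9 FPKM. Glycolysis, which splits glucose for energy and building blocks, had all 21 of its genes at this level and a median of 42.8 FPKM. Pgk1 had 433, 475 and 471 FPKM, a mean of 460 ± 23.5 FPKM, though 53.9% of its words are shared, mostly with its copy Pgk1-rs7 at 5.47 ± 1.00 FPKM. Aldoa, the aldolase, had 319 ± 18.5 FPKM and Pkm, the pyruvate kinase, 214 ± 7.26 FPKM. Ldha, which turns pyruvate to lactate, had 171 ± 9.27 FPKM, against 2.17 FPKM for Ldhb. Gapdh, a usual reference gene, had 87.9 ± 7.42 FPKM, and 25.1% of its words are shared. Pfkm was the lowest, at 1.55 FPKM.

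Amino acid uptake and use were high. Slc1a5, the glutamine carrier, had 255, 251 and 248 FPKM, a mean of 251 ± 3.83 FPKM. Slc7a5, the leucine carrier, had 231 ± 9.31 FPKM and Slc3a2, its heavy chain, 150 ± 3.98 FPKM. The list of 16 transporters was uneven, since 11 reached 1 FPKM and the lowest detected, Slc43a1, had 0.0571 FPKM. In polyamine and glutamine metabolism Odc1, which makes putrescine, had 415, 470 and 436 FPKM, a mean of 440 ± 27.8 FPKM. Sat1, which acetylates polyamines, had 192 ± 1.92 FPKM and Srm, the spermidine synthase, 137 ± 4.74 FPKM. Arg1 was the lowest of 23, at 0.404 FPKM.

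Serine and one-carbon metabolism, which feeds purine synthesis, had 17 of 19 genes at 1 FPKM or more and a median of 21.4 FPKM. The mitochondrial enzymes led: Shmt2 had 199, 203 and 195 FPKM and Mthfd2 156 ± 2.28 FPKM. Phgdh, the first enzyme of serine synthesis, had 141 ± 6.05 FPKM but shares 47.8% of its words. The ratio of mitochondrial Shmt2 to cytosolic Shmt1 was 12.3, 12.8 and 12.5. Cbs, of transsulfuration, was the lowest at 0.0632 FPKM. Asns, the asparagine synthetase and a known target of ATF4, had 104 ± 2.87 FPKM.

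Genes of mitochondrial energy supply were nearly all present. All 40 nuclear genes of the respiratory chain and ATP synthase reached 1 FPKM (median 36.9 FPKM), from Cox6a1, a subunit of complex IV, at 217 ± 10.8 FPKM, through Atp5b at 205 ± 6.01 FPKM and Cox8a at 187 ± 19.3 FPKM, to Ndufb5 at 7.76 FPKM. Of 28 genes of pyruvate entry and the TCA cycle 26 did (median 16.4 FPKM), led by Sdhd at 52.3 ± 5.52 FPKM, Mdh2 at 51.6 ± 1.35 FPKM and Pdha1 at 40.8 ± 1.85 FPKM. Pdk4, which shuts pyruvate entry, had 0.0046 FPKM. The pentose phosphate pathway had all 8 genes at this level, led by Tkt at 21.9, Taldo1 at 19.6 and G6pdx at 15.2 FPKM, with H6pd at 1.48 FPKM the lowest.

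Lipid pathways sat below these. In fatty acid synthesis Acly, which makes cytosolic acetyl-CoA, had 227 ± 5.31 FPKM, Fasn, the synthase, 54.9 ± 3.51 FPKM and Acsl4 38.5 ± 1.00 FPKM, while Acacb had 0.067 FPKM and the list's median was 8.15 FPKM. Fatty acid oxidation had a median of 5.73 FPKM, led by Acadvl at 40.2, Etfa at 22.0 and Acadl at 15.6 FPKM, with Cpt1c at 0.076 FPKM. Of 24 genes of cholesterol synthesis and uptake 22 reached 1 FPKM, with a median of 5.49 FPKM. Insig1, the sterol sensor, had 33.2 ± 1.42 FPKM and Msmo1, a sterol oxidase, 18.5 ± 0.281 FPKM.

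All 23 genes of nucleotide synthesis reached 1 FPKM (median 12.4 FPKM), led by Impdh2, of guanine synthesis, at 73.7 ± 0.995 FPKM, Paics at 37.8 ± 1.38 FPKM and Adss at 35.7 ± 1.99 FPKM, with Dhodh at 1.81 FPKM the lowest. Genes of tryptophan and aryl hydrocarbon receptor metabolism were the lowest of the metabolic lists, 7 of 16 reaching 1 FPKM with a median of 0.568 FPKM. Tiparp, a target and repressor of that receptor, had 76.3 ± 5.83 FPKM, Wars, the tryptophanyl-tRNA synthetase, 51.8 ± 1.09 FPKM and Cyp1a1, the classical target, 22.8, 26.7 and 25.6 FPKM. Aldh3a1 had 0.00837 FPKM. Cyp1a1 stood above its receptor Ahr in each library.

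**Figure D4:**
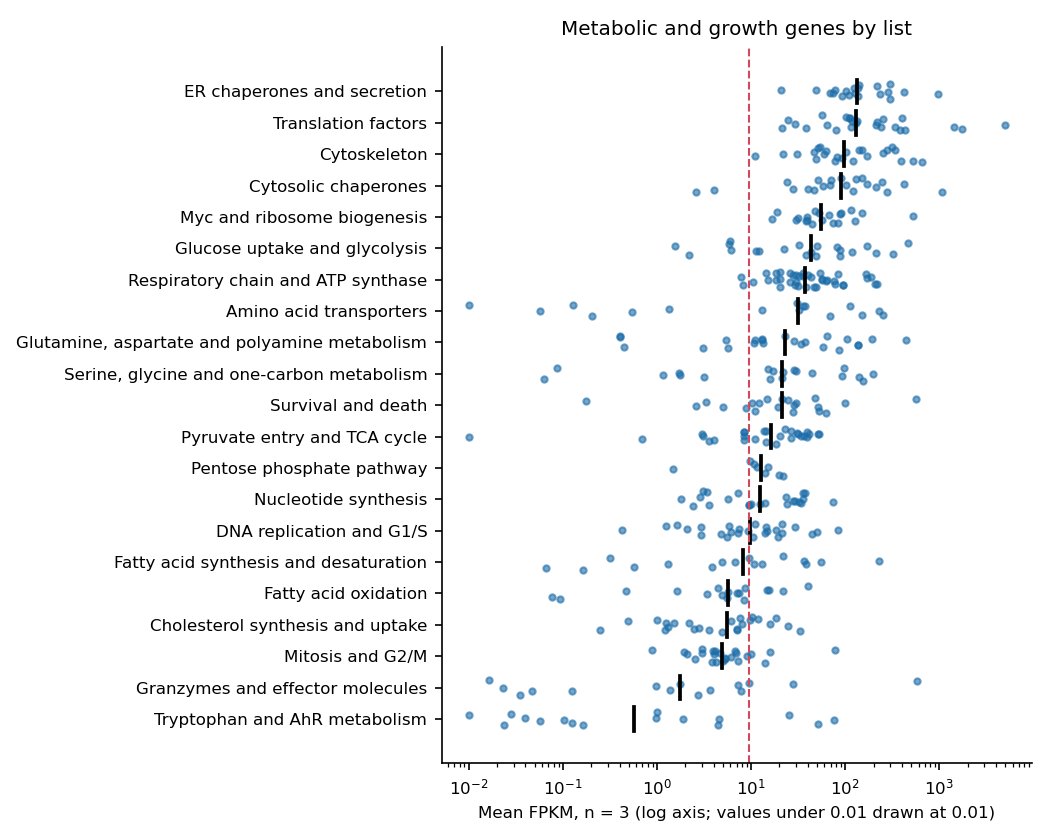
Mean FPKM (log axis) of each gene of the metabolic and growth lists as blue points, spread vertically for visibility and drawn at 0.01 where lower, with the list's median as a black bar and the median of protein-coding genes of at least 1 FPKM (9.41 FPKM) as a red dashed line. ER chaperones and translation factors have the highest medians, at 132 and 131 FPKM, and tryptophan and AhR metabolism the lowest, at 0.568 FPKM.

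Growth genes had the highest median of all classes, 46.6 FPKM: 186 of 195 (95.4%) reached 1 FPKM and 61 reached 100 FPKM. ER chaperones and secretion, the folding path of secreted proteins, had a median of 132 FPKM. Behind Hspa5 came Calr, a calcium-binding chaperone, at 419 ± 7.83 FPKM and Pdia3, a disulfide isomerase, at 300 ± 10.2 FPKM, with Sec61g the lowest at 20.6 FPKM. The 25 translation factors had a median of 131 FPKM and all reached 10 FPKM, down to Eef1d at 21.1 FPKM. Cytosolic chaperones had a median of 90.0 FPKM, led after Hsp90ab1 by Hspa8 at 421 ± 10.6 FPKM and Ppia at 280 ± 12.6 FPKM. The heat-inducible Hspa1a was the lowest there, at 2.57 FPKM, and shares 66.3% of its words, mostly with Hspa1b.

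Ribosome biogenesis had a median of 55.0 FPKM, with Npm1, Ncl at 152 ± 3.00 FPKM and Myc in front and Polr1a last at 16.8 FPKM. The cytoskeleton list had a median of 96.6 FPKM, with Tmsb4x, Actb and Tmsb10 at 392 ± 45.7 FPKM highest and Stmn1 lowest at 10.9 FPKM. Division genes were lower. DNA replication and G1/S had a median of 9.83 FPKM, led by Pcna at 84.0 ± 0.948 FPKM, Cdk4 at 50.6 ± 3.11 FPKM and Ccnd2 at 43.9 ± 1.32 FPKM, while Ccnd1 had 0.423 FPKM. Mitosis and G2/M had a median of 4.86 FPKM, led by Tubb4b at 78.5 ± 3.85 FPKM, Cdc20 at 15.7 ± 1.99 FPKM and Mki67 at 14.05 ± 1.04 FPKM, with Cenpf lowest at 0.893 FPKM. Both medians were highest in replicate 2, at 11.2 and 5.43 FPKM.

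Survival genes were led by Pim1, Mcl1 at 100 ± 1.29 FPKM and Bcl2a1d at 62.9 ± 3.87 FPKM. Bcl2a1d shares 79.5% of its words with its copies, among them Bcl2a1a, the lowest at 0.175 FPKM. Cytotoxic effector genes were low apart from Srgn and the protease Ctsw at 27.6 ± 3.05 FPKM. Their list had a median of 1.77 FPKM. The third highest was Serpinb6b, a protease inhibitor, at 9.59 ± 1.03 FPKM, and the lowest detected was Gzmf at 0.0164 FPKM.

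The libraries agreed closely across genes, and the exceptions were few. Over the 6511 protein-coding genes of at least 5 FPKM, Pearson correlations of log2(FPKM + 1) were 0.994, 0.995 and 0.996, given as a description over genes, which are not independent. The median CV was 4.96%, while the CV expected from counting error alone had a median of 2.54%. That expected CV is a root mean square, and a median of CVs over 3 libraries tends to fall below it. The measures are therefore not the same. The observed median CV was 6.37% for genes of 5 to 10 FPKM and 3.95% for those of at least 100 FPKM. For the latter the expected counting CV had a median of 0.868%. A CV over 25% was found for 18 of the 6511. By list, chemokines were the most variable, with a median CV of 16.2% over 5 genes, and cytosolic chaperones the least, with 2.55% over 19.

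Among the 10 genes of highest CV, Gm17651, Gm10800, Gm47283 and Gm20481 are predicted genes, and Gm17651 is 36 bases long with 9 reads on average. The others include Gzmb, a granzyme, at 9.68, 4.38 and 7.53 FPKM (CV 37.0%), Il3 (CV 32.7%) and Kcna3, the potassium channel of effector T cells, at 49.1, 26.8 and 36.2 FPKM (CV 30.01%). The CV expected from counting error alone was 7.18%, 7.63% and 2.67% for these 3. Cisd3 (33.5%), Shf (31.6%) and Gprin3 (28.3%) complete the 10. Gzmb, Kcna3 and Gprin3 were highest in replicate 1 and lowest in replicate 2. The 10 of lowest CV, from 0.0607% to 0.245%, were Opa3, Chmp1a, Anxa7, Ppp1r15b, Degs1, G3bp1, Rad21, Scamp2, Copa and Rae1. Their CV lies under that expected from counting error, 0.835% for Copa and more for the others. They are the lowest of 6511 genes with 3 values each, so such values do not show that these genes are unusually stable.

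**Figure D5:**
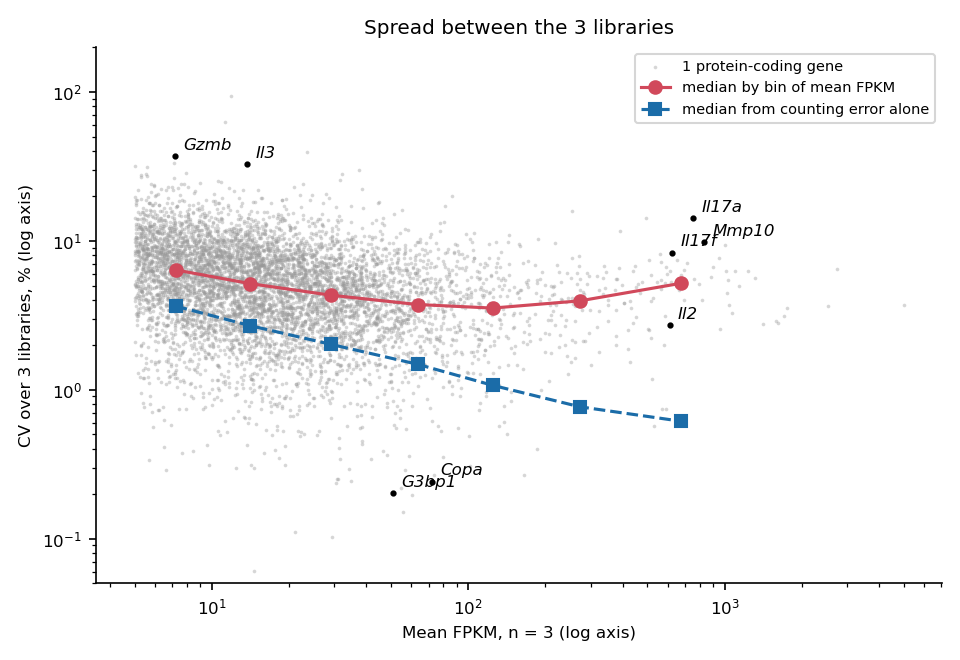
CV over the 3 libraries (log axis) against mean FPKM (log axis) for protein-coding genes of at least 5 FPKM as grey points. Medians by bin of FPKM are in red, and medians of the CV expected from counting error alone are in blue. The observed median stays above the counting line in every bin, and Gzmb (37.0%) and Il3 (32.7%) stand at the top of the cloud while Il2 lies below Il17a, Il17f and Mmp10.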

How the data were processed

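The authors deposited FPKM values per gene and library, one file for each sample, and those of the 3 vehicle samples were read unchanged. The tools and build named by the submitters' processing notes are FastQC 0.11.2, Bowtie and mm10. The version of Bowtie, the counting program, the annotation and the use of strand are not named in the sources used here. Symbols, classes, lengths and positions come from GENCODE vM21 on GRCm38, and 715 identifiers matched no symbol. With its lengths, 98.8 to 98.9% of values under 60 reads came within 0.1 of a whole read, which gives the depth. Of the 29522 rows analysed, 0 lie on the mitochondrial genome.

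Means, SDs and CVs were taken over 3 libraries with pandas 2.3.3 and numpy 2.4.6 under Python 3.11.15 (figures with matplotlib 3.10.9). There was no test, since 1 group is described. Depth recovery and CV were tested on simulated data. A gene counts as present at a mean of 1 FPKM, and CVs use means of at least 5 FPKM. Members and gene lists (59 lists, 1076 of 1100 symbols measured) were chosen with earlier results of these data known.

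Genes were named by rule: Cd4, Il17a and Il17f, the 25 highest protein-coding genes, the 12 highest factors, cytokines and receptors, chosen lineage genes, the 3 highest and the lowest detected of each metabolic and growth list, and the 10 highest and 10 lowest CVs. Some genes the rule names are not reported here. Other genes named beside them were chosen after their values were seen. Words of 50 bases came from GENCODE transcripts. Non-coding genes were matched to transcripts with BLAST+ 2.17.0. Promoters are RefSeq's. Alternatives were leaving out each library, TPM scale, the median of libraries, other thresholds, other totals, reads in place of FPKM, a pseudocount of 0.1 and upper quartile scale.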

Additional observations from a re-analysis of the deposited data

How the results depend on the processing

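Leaving out 1 library at a time changed no direction here, since no contrast was made. The ranges then were 718 to 817 FPKM for Il17a, 608 to 654 FPKM for Il17f, 3.75 to 4.55% for the median CV and 0.9942 to 0.9955 for the lowest correlation. Each such CV is over fewer libraries, so it cannot be set against the median CV over all 3. On TPM scale (each library scaled to the same total) Il17a came to 2347 and Il17f to 1938, with unchanged ranks of 27 and 36. With a threshold of 5 FPKM, 7703 genes and 36 cytokine genes passed. Over protein-coding genes alone, the share of the 50 most abundant was 20.2% and that of ribosomal proteins 18.2%, and ribosomal proteins held 7.72% of reads. The median CV was 6.10% from 1 FPKM and 10.2% without a filter, where the lowest correlation was 0.997. Medians of single lists moved by over 1 SD in 8, 7 and 7 of 59 lists without replicate 1, 2 and 3. Upper quartile scale for the median CV and the pseudocount of 0.1 for the lowest correlation moved neither by over 1 SD. No paired analysis was possible because only 1 group is described and no test was made. The worth of 1 read limits low levels, and 3 libraries limit every SD.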

Other observations

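Matrix metalloproteinase genes of 1 cluster differed widely from their neighbours. On chromosome 9 of GRCm38, Mmp13 lies at chr9:7272514-7283331 and Mmp10 at chr9:7502352-7510240, both on the plus strand. They were the only genes of the 22 Mmp genes measured above 100 FPKM. Mmp12, macrophage elastase, at chr9:7344381-7369499 between them, had 22.5, 29.7 and 27.2 FPKM. Mmp3, which lies closer to Mmp10 at chr9:7445822-7455975 and encodes stromelysin-1, had 0.351, 0.433 and 0.215 FPKM, and Mmp8, the neutrophil collagenase, had 0.0067 FPKM as a mean. The ratio of Mmp10 to Mmp13 was 1.27, 1.42 and 1.35. In the whole family 6 of 22 reached 1 FPKM and 9 were under 0.1 FPKM. Of their tissue inhibitors, Timp1 had 22.7 ± 5.46 FPKM, Timp2 2.72 ± 0.0615 FPKM and Timp3 was at 0 in all 3 libraries. Of 11 stromal, endothelial and epithelial markers 2 reached 1 FPKM, and Epcam was the highest at 11.7 FPKM. Col1a1 had 0.0483 and Col1a2 0.00131 FPKM as means. The cell source of the proteases was not tested. The genes of this paragraph were singled out after their values were seen.

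Some of the highest values of all belong to pseudogenes. Gm10925, at chr1:24613974-24614651, had 5068, 5682 and 5727 FPKM, above Eef1a1 in every library, and its transcript matches mt-Atp6 at 100% identity over its whole length. Of 63 non-coding genes of at least 100 FPKM, 9 match a mitochondrially encoded gene at 96.7 to 100% identity. They took 7.04, 7.49 and 7.64% of the summed FPKM. Of the 29522 rows analysed, 0 lie on the mitochondrial genome, so whether the reads behind these values came from the pseudogenes or from mitochondrial transcripts cannot be told apart. Other pseudogenes match ribosomal protein genes. Gm9794 matches Rpl23 at 99.8% identity and had 1144 ± 60.7 FPKM. Rps10-ps2 matches Rps10 at 99.0% and had 662 ± 45.4 FPKM, while Rps10 itself had 9.13 FPKM. The share and order of the 77 ribosomal protein genes do not count such copies. All pseudogenes together took 12.1 ± 0.336% of the FPKM but 2.77 ± 0.109% of the reads. Shares of FPKM in the report include them in the total.

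Host genes of microRNAs with known roles in T cells were also abundant. Mir155hg, the host of miR-155, had 163, 159 and 167 FPKM, and Mir142hg, the host of miR-142, had 139, 153 and 160 FPKM. Mature microRNAs were not analysed here.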
